A study of Mus musculus with 3 samples.

Results

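The genes described here are those of the interferon response and of antigen presentation by MHC class I, measured in mouse embryoid bodies that carry human BRCA1 in a wild-type or a mutant form. The list names 34 genes by symbol, and a gene was read where the platform annotation gives it a probe set of its own, which held for 31 of the 34, out of 18193 genes on the array. The other 3 genes, H2-T23, Psme2 and Isg15, are on probe sets that carry several gene symbols, so no value is given for them. The 31 genes have 55 probe sets, and where a gene has several, the probe set with the highest average signal stands for it.

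Embryoid bodies are clusters that embryonic stem cells form in suspension while they begin to differentiate. All 3 groups are bodies of the strain 129S7/SvEv Brd-Hprt b-m2 collected on day 7, in which the suffix b-m2 belongs to the Hprt allele and has nothing to do with the gene B2m. The bodies called WT carried wild-type human BRCA1, those called MI carried human BRCA1 with the substitution M1652I, and those called RQ carried R1699Q by the series design, where the label of the RQ array itself writes R1669Q. The state of the mouse Brca1 gene, the number of stem cell clones and the number of pooled bodies are not given in the sources used here. Feeder cells had been removed on gelatin before the bodies were formed, and the labels name no added agent. Each genotype was measured once, on 1 Affymetrix array, so no difference has a replicate check and no test was possible, and precision is limited by the number of arrays.

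Interferons are secreted proteins that cells release on infection. Through their receptors they activate STAT and IRF factors, and these switch on antiviral genes and the machinery that cuts proteins into peptides, moves the peptides into the endoplasmic reticulum and loads them on MHC class I. Class I at the cell surface is a heavy chain bound to the light chain beta-2 microglobulin, the product of B2m. Embryonic stem cells are known for low class I levels and a weak interferon response. Genes of the Ifitm family, which encode small membrane proteins that hinder virus entry, are expressed in stem and germ cells without interferon.

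Promoters of B2m, the 3 Ifitm genes and Oas1a are shown first. The interferon-stimulated response element is 1 of the DNA letter patterns through which interferons act. RefSeq promoter windows of build GRCm38.p6, each from 250 bases before to 50 bases after a transcript start, were found for 31 of the 34 listed genes and not for Mx1, Usp18 and Tap2. The 5 stretches below are 200 bases long and read 5′ to 3′ along the gene's strand. They end at the base before the start, except for Ifitm3, where 29 bases past the start are included. Capitals mark matches on either strand to 1 of 3 patterns, in which bases between the spelled parts may be any. These were the core of the response element (GAAA, 2 bases, GAAA), the gamma-activated site (TTC, 3 bases, GAA) and the kappa B site (GGG, 2 bases, TTTCC). The stretch of B2m is chr2:122147487-122147686 (plus strand), that of Ifitm1 chr7:140967876-140968075 (plus), that of Ifitm2 chr7:140955962-140956161 (minus), that of Ifitm3 chr7:141010716-141010915 (minus) and that of Oas1a chr5:120907526-120907725 (minus).
B2m: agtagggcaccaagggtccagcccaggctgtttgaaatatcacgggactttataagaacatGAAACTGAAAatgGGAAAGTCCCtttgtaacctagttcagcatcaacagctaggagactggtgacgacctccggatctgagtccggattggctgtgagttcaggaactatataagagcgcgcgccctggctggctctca
Ifitm1: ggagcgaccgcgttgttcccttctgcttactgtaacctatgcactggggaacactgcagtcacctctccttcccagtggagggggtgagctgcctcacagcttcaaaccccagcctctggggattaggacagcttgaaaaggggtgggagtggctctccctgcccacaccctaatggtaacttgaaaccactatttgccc
Ifitm2: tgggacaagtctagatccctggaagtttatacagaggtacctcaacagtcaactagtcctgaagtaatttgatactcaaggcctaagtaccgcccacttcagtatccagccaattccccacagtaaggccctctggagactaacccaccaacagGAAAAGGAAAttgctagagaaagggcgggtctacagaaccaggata
Ifitm3: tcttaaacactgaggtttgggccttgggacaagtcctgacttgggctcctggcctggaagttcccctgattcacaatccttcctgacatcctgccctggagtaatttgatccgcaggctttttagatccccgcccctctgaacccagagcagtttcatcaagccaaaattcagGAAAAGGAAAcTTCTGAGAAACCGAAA
Oas1a: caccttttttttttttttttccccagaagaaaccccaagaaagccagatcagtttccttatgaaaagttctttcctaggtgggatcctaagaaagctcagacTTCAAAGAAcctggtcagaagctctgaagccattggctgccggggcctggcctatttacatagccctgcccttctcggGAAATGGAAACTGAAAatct

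The B2m stretch holds 1 response element core, GAAACTGAAA, which begins 139 bases before the start, and 1 kappa B match that begins 126 bases before it. In Ifitm3 the cores GAAAAGGAAA and GAAACCGAAA lie just past the start, and a gamma-activated site match overlaps the second of them. Ifitm2 has 1 core, 46 bases before its start, and Ifitm1 has no match in its window. In Oas1a 2 cores overlap, beginning 20 and 14 bases before the start, and a gamma-activated site match begins 98 bases before it. Of the 31 genes with a window, 14 held the response element core in at least 1 of their windows, among them Bst2, Rsad2, Ifit1 and Ifit3. Over all 32851 promoter windows of the same length the share with this core was 3.44%. The gamma-activated site was found for 7 genes (8.3% of all windows) and the kappa B site for B2m alone (1.63% of all windows). A match is a description of letters, and a window without one says nothing about whether the factor acts on the gene.

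Values are the deposited log2 signals, and differences are given in log2 units with their direction. The arrays had the same mean (6.60), but MI signals were less spread out (SD 1.06 over probe sets) than those of WT and RQ (SD 1.17 for both). A gene was read in a comparison where the higher of its 2 values reached 6.31, the median signal of the whole data set. Of the 31 genes, 17 were above this level on all 3 arrays, 8 on some of them and 6 on none, namely Tap2, Erap1, Stat2, Ifit1, Mx1 and Ifih1. Irf7, Usp18, Oasl2 and Ifit2 were above it on the MI array alone and Psmb10 on the WT array alone, so these 5 were read through the array where they were highest. Probe sets of 1 gene differed among themselves by a median SD of 0.16 in RQ minus WT, 0.15 in MI minus WT and 0.16 in RQ minus MI. They were read on the same arrays, so this does not measure the spread between repeated arrays.

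**Figure D1:**
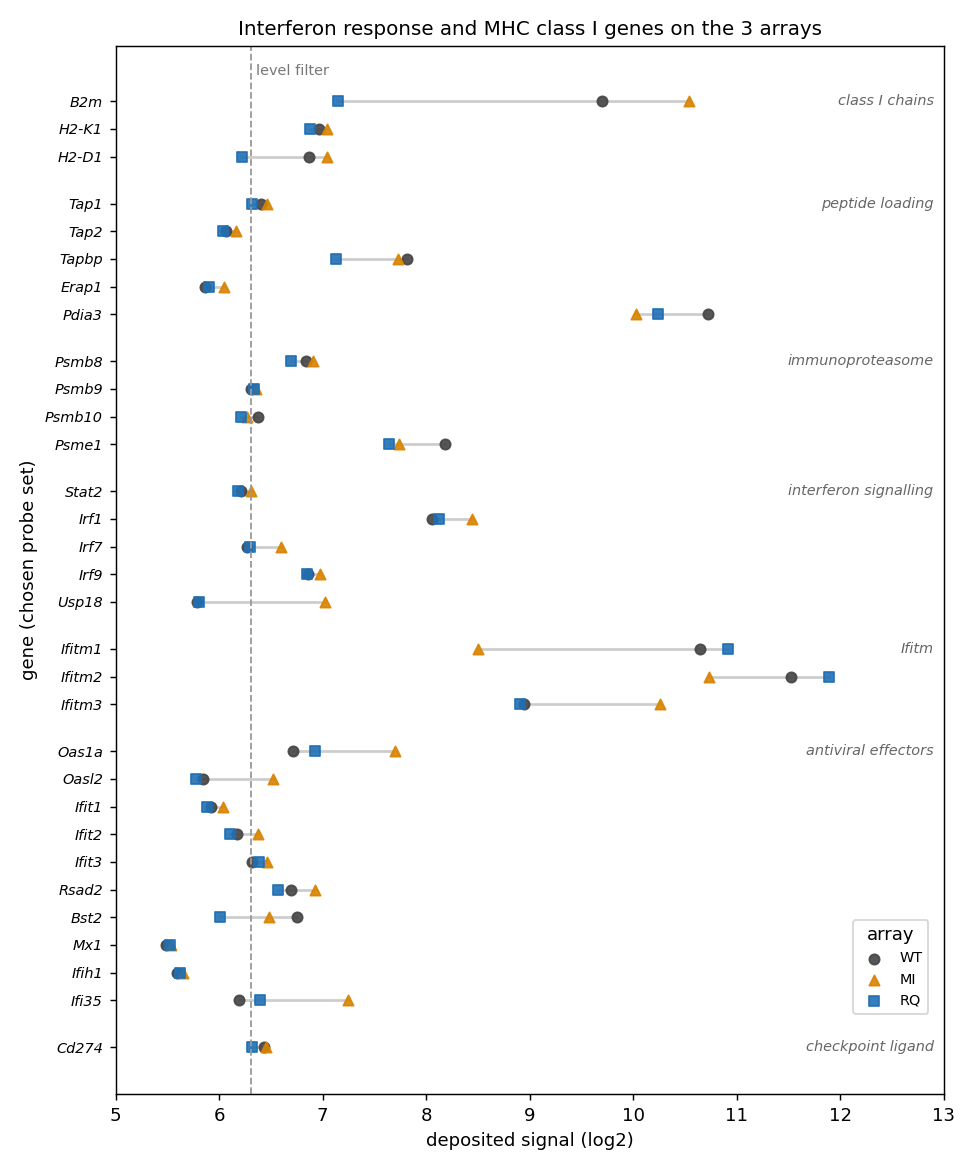
Deposited log2 signal (x axis) of the 31 genes (rows, grouped by role) on the WT (circles), MI (triangles) and RQ (squares) arrays, with 1 array per genotype and the dashed line at the level filter of 6.31. B2m spans 7.15 in RQ to 10.54 in MI, Ifitm1 is lowest and Ifitm3 highest in MI, and most other genes lie close to the filter.

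B2m and Ifitm1 had the widest ranges over the 3 arrays, 3.39 and 2.41 log2 units, followed by Ifitm3 (1.35), Usp18 (1.24) and Ifitm2 (1.16). Among 12226 genes read in RQ against WT, 1.68% were higher by 2-fold or more and 1.49% were lower by as much. Of the 21 listed genes read there, 0 were 2-fold higher and 1 was 2-fold lower, which was B2m. In MI against WT the shares of 12786 genes were 0.516% higher and 2.44% lower. Of the 25 listed genes read, 3 were 2-fold higher (Ifitm3, Usp18 and Ifi35) and 1 was 2-fold lower (Ifitm1). Usp18 (5.79) and Ifi35 (6.19) were below the filter in WT, so they were read there only through MI, where they were highest. Between the mutants, RQ was 2-fold above MI for 1.98% of 12800 genes and 2-fold below it for 0.508%. Of the 24 listed genes read, 2 were 2-fold higher in RQ (Ifitm1 and Ifitm2) and 3 were 2-fold lower (B2m, Ifitm3 and Usp18). Here too Usp18 was read only through MI. Any 2 of these comparisons share 1 array and so its errors. MI minus WT and RQ minus MI both rest on the MI array, so they are not separate observations of it.

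**Figure D2:**
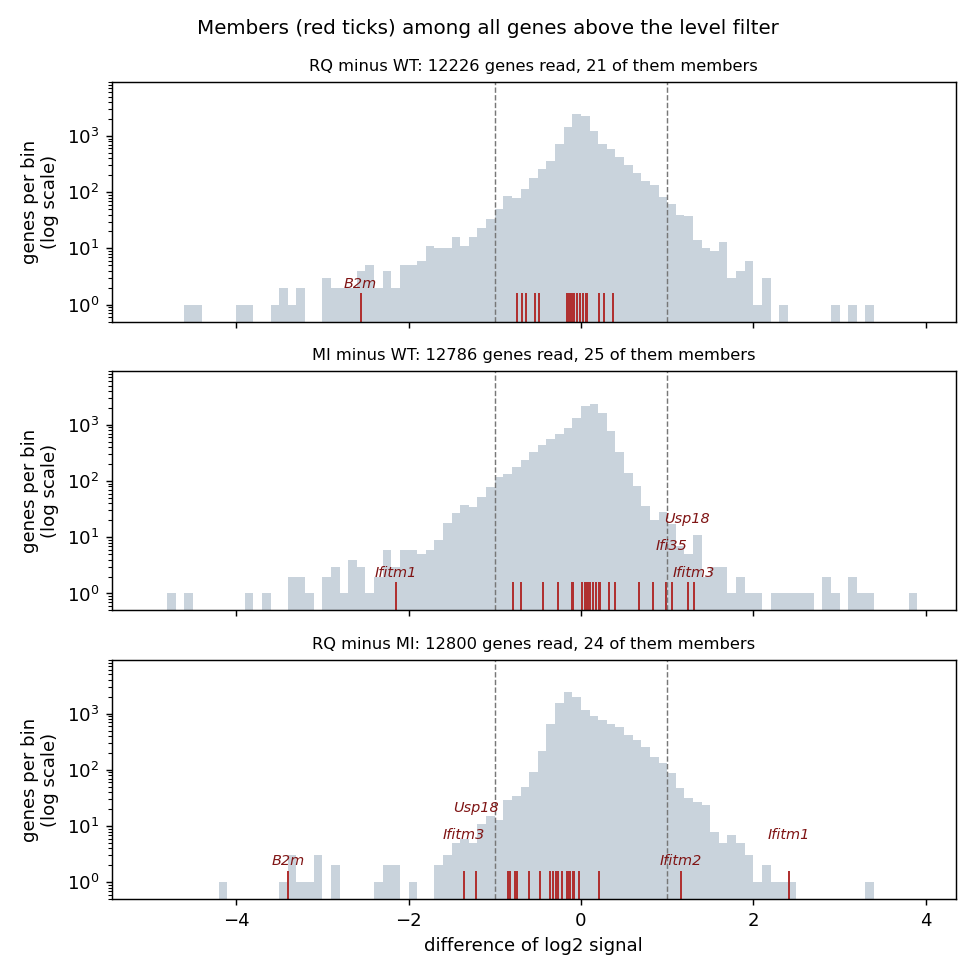
Number of genes (log scale) by difference of log2 signal in bins of 0.1 for the 3 comparisons, over all genes above the level filter, with red ticks for the listed genes and dashed lines at 2-fold. B2m lies at -2.56 in RQ minus WT and -3.39 in RQ minus MI, Ifitm1 at -2.14 in MI minus WT, and most listed genes lie near 0.

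B2m encodes the class I light chain, without which most heavy chains do not reach the cell surface. Its signal was 9.70 (WT), 10.54 (MI) and 7.15 (RQ). The RQ array thus stood below both others, by 5.88-fold against WT (difference -2.56) and 10.5-fold against MI (-3.39), while MI was 1.79-fold above WT (0.84). In RQ minus MI only 2 of the 12800 genes read had a lower value. The second B2m probe set read 9.61, 10.31 and 7.45 in the same order, so both probe sets placed the arrays alike, with differences of -2.16 in RQ minus WT, 0.69 in MI minus WT and -2.85 in RQ minus MI. In whole embryoid bodies, fewer cells that make a transcript and less of it per cell cannot be told apart.

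The class I heavy chain genes H2-K1 and H2-D1 gave smaller differences, which varied with the probe set. The H2-K1 probe set used here gave 6.96 (WT), 7.04 (MI) and 6.88 (RQ), which is nearly flat. The next H2-K1 probe set read 6.91, 7.72 and 6.15, with RQ minus MI at -1.57 and MI minus WT at 0.81. All 4 H2-K1 probe sets were lower in RQ than in WT (-0.76 to -0.09) and lower in RQ than in MI (-1.57 to -0.16). Class I heavy chain genes are near-identical copies, and all 4 of these probe sets belong to a kind that is not specific to a single transcript, so they may read related genes as well.

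H2-D1 read 6.86 (WT), 7.04 (MI) and 6.22 (RQ), the last below the level filter. Its differences were -0.64 in RQ minus WT and -0.82 in RQ minus MI, against 0.18 in MI minus WT. Of its 9 probe sets, 8 were lower in RQ than in MI and 8 lower in RQ than in WT. Over all genes without a filter, 63.2% were lower in RQ than in MI and 50.9% lower in RQ than in WT. Several of the 9 were below the filter on every array. Most are of the less specific kind and may read the same transcripts, so they are not separate measurements. The RQ minus MI differences ran from -0.82 to 0.05 with a median of -0.30. Of the 2 H2-D1 probe sets outside that less specific kind, one read 6.68, 6.56 and 6.38 in WT, MI and RQ, and the other stayed below the filter with 5.24, 5.18 and 5.23.

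**Figure D3:**
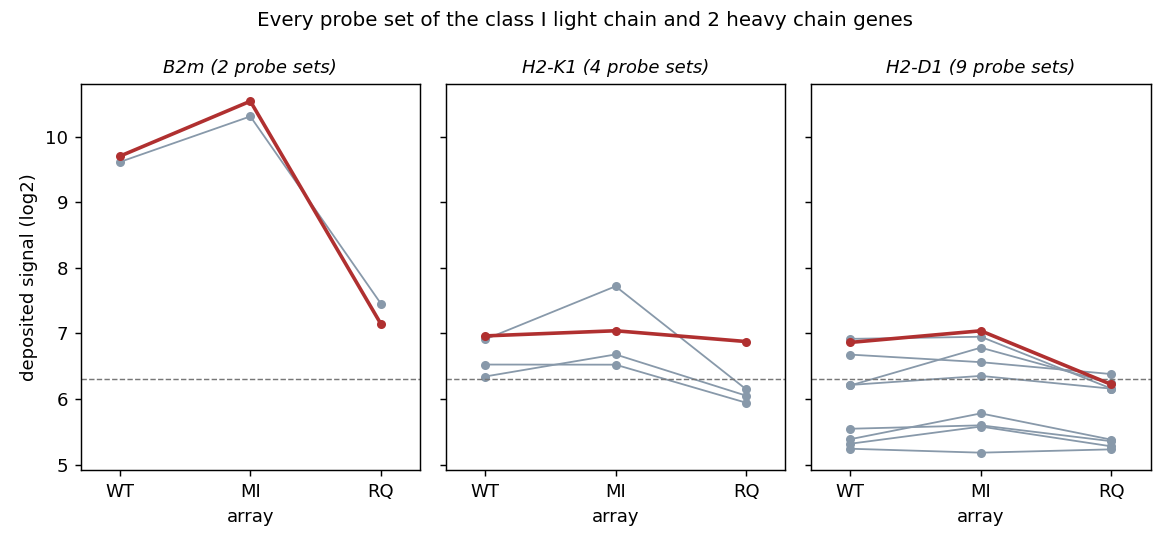
Deposited log2 signal of every probe set of B2m (2), H2-K1 (4) and H2-D1 (9) on the WT, MI and RQ arrays, with the probe set used for the gene in red and the level filter dashed. Both B2m probe sets are lowest in RQ by over 2 log2 units, and the H2-K1 and H2-D1 probe sets above the filter are lowest in RQ by smaller amounts, except 1 H2-D1 probe set that is lowest in WT (6.21).

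The genes that load class I were lower in RQ than in WT or near it. Tapbp encodes tapasin, which holds empty class I at the peptide transporter, and read 7.81 (WT), 7.72 (MI) and 7.13 (RQ). It was lower in RQ than in WT by -0.68 and than in MI by -0.60, while its other probe set, below the filter, differed by -0.15 and -0.04. Pdia3 encodes the oxidoreductase ERp57 of the loading complex and of glycoprotein folding in general. Its signal was 10.72 for WT, 10.03 for MI and 10.24 for RQ, so both mutants were lower, by -0.70 in MI and -0.48 in RQ. Its other probe set, also above the filter on all 3 arrays, read 6.78 (WT), 6.80 (MI) and 6.70 (RQ), with MI minus WT at 0.02 and RQ minus WT at -0.08. At this level the MI array was generally lower than WT, with a median of -0.35 over the 278 genes at levels of 10 to 11, and after a lowess correction for level Pdia3 was at -0.32 in MI and -0.46 in RQ. Tap1, a subunit of the peptide transporter, read 6.40, 6.46 and 6.31 in WT, MI and RQ and thus sat at the filter. That probe set is of the less specific kind, and the other Tap1 probe sets were below the filter on every array. Tap2, the partner of Tap1, and the trimming peptidase Erap1 did not reach the filter on any array.

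The inducible proteasome genes replace or activate subunits of the standard proteasome when interferon gamma acts. Psmb8 read 6.84 (WT), 6.91 (MI) and 6.69 (RQ), Psmb9 read 6.31, 6.36 and 6.34, and Psmb10 read 6.37, 6.27 and 6.21. The largest difference among these 3 catalytic subunits was 0.21, for Psmb8 between MI and RQ, and all lay at or near the filter. The Psmb8 probe set used is of the less specific kind. The gene's other probe set, below the filter on every array, differed by 0.01 in RQ minus MI and -0.11 in MI minus WT. Psme1, a subunit of the PA28 activator, had 8.18 (WT), 7.74 (MI) and 7.64 (RQ), lower in both mutants (-0.44 and -0.54). The 16 standard proteasome genes examined beside them were all read, and 14 of 16 were above 0 in RQ minus WT, with a median of 0.42 against 0.01 for all genes read. Psma1 (0.75), Psma2 (0.57), Psma4 (0.57) and Psmb3 (0.56) led these, none reached 2-fold, and 14 of 16 were above 0 under each of 3 other scalings. Psmb5 was at 0.80 in RQ minus MI and Psma7 at -0.71 in MI minus WT. At their levels of 9 to 10 the medians over all genes read were 0.39 and -0.36 in these comparisons. The median of the 16 in RQ minus MI was 0.43 as deposited. It became 0.07 with the lowess correction and 0.06 once the arrays were quantile-normalized. In MI minus WT their median was -0.03 and became 0.33 with the lowess correction and 0.36 once the arrays were quantile-normalized.

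Among the factors that carry the interferon signal, Irf1 was the best measured. It is a transcription factor that interferon gamma induces and that acts on class I genes, and it read 8.05 (WT), 8.45 (MI) and 8.12 (RQ), with MI highest by 0.39 over WT and 0.32 over RQ. Irf9, the DNA-binding part of the complex that interferon alpha and beta activate, was flat (6.86, 6.97 and 6.85), and its partner Stat2 did not reach the filter. Irf7, which amplifies type I interferon production, read 6.27, 6.59 and 6.30. Usp18 removes ISG15 from proteins and restrains the type I receptor, and is itself induced by interferon. Its readings were 5.79 (WT), 7.03 (MI) and 5.81 (RQ), so it was above the filter on the MI array alone, and its difference of 1.24 to WT is measured against a signal near background.

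The 3 Ifitm genes, which lie close together on chromosome 7, did not move together. Ifitm1 read 10.65 (WT), 8.50 (MI) and 10.92 (RQ). It was 4.42-fold lower in MI than in WT (-2.14) and 5.33-fold higher in RQ than in MI (2.41), where 1 gene of 12800 had a higher value. Ifitm2 read 11.52, 10.73 and 11.89 and so was lowest in MI too, with MI minus WT at -0.79 and RQ minus MI at 1.16. Ifitm3 ran the other way and read 8.95 (WT), 10.26 (MI) and 8.90 (RQ), which made it 2.48-fold higher in MI than in WT (1.31) and 2.56-fold higher in MI than in RQ. WT and RQ were close for all 3 genes, with RQ minus WT at 0.27 for Ifitm1, 0.37 for Ifitm2 and -0.04 for Ifitm3.

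Each of these genes has 1 probe set, so no second reading was available. After the lowess correction the MI minus WT differences were -1.83 for Ifitm1, -0.38 for Ifitm2 and 1.62 for Ifitm3, and the RQ minus MI difference of Ifitm2 fell short of 2-fold at 0.79. Ifitm3 and Ifitm1 are known from germ cell precursors. Of the 8 germ cell markers on the array, 7 were read in MI minus WT, and Dazl and Dppa3 were 2-fold higher. In RQ minus WT, Dazl, Kit, Prdm14 and Tfap2c were 2-fold higher. Dppa3 (7.88 (WT), 9.74 (MI) and 8.58 (RQ)) and Dazl (8.90, 10.45 and 10.26) were highest in MI. Kit (7.76, 8.56 and 8.93), Prdm14 (6.19, 6.52 and 7.44) and Tfap2c (8.39, 8.71 and 9.49) were highest in RQ, and Ddx4 (6.91, 6.33 and 6.85) and Dnd1 (6.69, 6.58 and 6.61) were lowest in MI. Of the rest of the Ifitm family, Ifitm6 read 6.45, 6.74 and 6.52 in WT, MI and RQ, and Ifitm5, Ifitm7 and Ifitm10 did not reach the filter.

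The antiviral effectors were read through small signals. Oas1a makes the messenger that activates RNase L, and its signals were 6.71 (WT), 7.70 (MI) and 6.93 (RQ), 1.98-fold higher in MI than in WT. Ifi35 read 6.19, 7.24 and 6.40, 2.07-fold higher in MI than in WT, on a probe set not specific to 1 transcript. Its other 2 probe sets, below the filter, differed by 0.20 and 0.22, and after the lowess correction the gene was at 0.96, short of 2-fold. Oasl2, an OAS-like protein, read 5.85, 6.52 and 5.78 and was seen above the filter in MI alone.

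Rsad2 encodes viperin, which makes a chain-ending nucleotide, and its 3 probe sets were 0.23 to 0.29 higher in MI than in WT. Ifit3 (6.32 (WT), 6.46 (MI) and 6.38 (RQ)) and Ifit2 (6.17, 6.38 and 6.11), which belong to a family that binds viral RNA, were at the filter. Bst2, the tetherin that holds budding virus at the cell surface, had another order, with 6.75 (WT), 6.48 (MI) and 6.01 (RQ). Cd274, the ligand PD-L1, was flat (6.44, 6.45 and 6.32). Ifit1, Mx1 and the RNA sensor Ifih1 did not reach the filter on any array.

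At a limit of 1.5-fold, Oas1a, Oasl2 and B2m joined the genes higher in MI than in WT, which made 6 of 25 where 1.92% of all genes read were as high. Ifitm2 and Pdia3 joined Ifitm1 among those lower in MI, 3 of 25 against 8.04% of all genes. In RQ minus WT no listed gene was 1.5-fold higher (6.9% of all genes) and 4 of 21 were lower (B2m, Bst2, Tapbp and H2-D1; 4.34% of all genes). In RQ minus MI 2 of 24 were higher (Ifitm1 and Ifitm2; 9.54% of all genes). There 8 of 24 were lower, namely B2m, Ifitm3, Usp18, Ifi35, H2-D1, Oas1a, Oasl2 and Tapbp (1.55% of all genes). Genes read through the MI array alone, such as Usp18 and Oasl2, are among these counts. In MI minus WT, Ifi35 was below the filter in WT and was read through MI. H2-D1 and Bst2 were below the filter in RQ, so each was read through the other array.

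Without a level filter, 28 of the 31 genes were lower in RQ than in MI, and the 3 that were not were Pdia3, Ifitm1 and Ifitm2. Over all 18193 genes 63.2% were lower in RQ than in MI. Among the 17 listed genes above the filter on all 3 arrays, 14 were lower in RQ, against 52.8% of the 10988 such genes on the array. After the lowess correction 24 of 31 were lower in RQ than in MI (50.2% of all genes). Pdia3 turned from 0.21 as deposited to -0.15, while Psmb9 (0.08), Mx1 (0.05), Ifih1 (0.04), Psmb10 (0.04) and Ifit3 (0.02) turned from below to above 0. In MI minus WT 24 of 31 were above 0 (63.5% of all genes), and in RQ minus WT 12 of 31 were (49.1% of all genes). The medians of the genes read were small, at -0.09 in RQ minus WT, 0.11 in MI minus WT and -0.28 in RQ minus MI, beside 0.01, 0.06 and -0.05 for all genes read. Without B2m and the Ifitm genes these medians were -0.12, 0.11 and -0.28. Of the 20 remaining genes read in RQ minus MI, 19 were below 0, beside 56% of all genes read. Among these 20, Irf7, Usp18, Oasl2 and Ifit2 were read through the MI array alone. H2-D1 and Bst2, below the filter in RQ, were also read in this comparison through MI. After median centring and after the lowess correction 18 of 20 were below 0, beside 44.2% and 50.5% of all genes read. The MI minus WT median was 0.02 after the lowess correction, close to that of all genes under it (0.00).

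Genes with and without the response element core in a promoter window overlapped in their differences. Of the 8 read in MI minus WT that had it, 5 were above 0, with a median of 0.19 and a range from -0.79 (Ifitm2) to 1.31 (Ifitm3). Of the 16 read without it, 12 were above 0, with a median of 0.07 and a range from -2.14 (Ifitm1) to 1.05 (Ifi35). Of all genes read in MI minus WT 59.5% were above 0. Irf7, Oasl2, Ifit2 and Ifi35, all without the core, were below the filter in WT and were read through MI. Psmb10, also without it, was read through WT. In RQ minus MI 7 of 8 genes with the core and 13 of 15 without it were below 0, beside 56% of all genes read. Bst2, with the core, and Irf7, Oasl2, Ifit2 and H2-D1, without it, were read there only through MI. Usp18 has no window and is in neither group. Both B2m and Ifitm2 hold the core, and RQ minus MI was -3.39 for B2m and 1.16 for Ifitm2.

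Other genes of the pathway were examined in lists beside the 34. Of 18 interferon ligands, receptors and kinases on the array, 11 were read in MI minus WT, where 1 was 2-fold higher. This was Socs3, a feedback inhibitor of JAK-STAT signalling, which read 8.67 (WT), 9.89 (MI) and 8.47 (RQ). Stat3 differed by -0.81 in RQ minus WT and Jak1 by 0.66, and Ifna1, Ifna4, Ifna5, Ifng, Ifngr2, Tyk2 and Socs1 did not reach the filter. Of 14 virus sensors and adaptors on the array, none of those read was past 2-fold. Their median was 0.25 in MI minus WT and 0.01 in RQ minus WT. In MI minus WT, Ddx58, the RNA sensor RIG-I, was at 0.51, Adar at 0.50, Samhd1 at 0.44 and Tlr3 at 0.37. Mavs and Tlr7 were below the filter in WT and were read in that comparison only through MI.

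Of 47 further interferon-induced genes on the array, 31 were read in MI minus WT and 28 of these were above 0, with a median of 0.31. Irf2, Tor3a and Ifi47 were below the filter in WT and were read in MI minus WT only through MI, where they were higher. Of all genes read there 59.5% were above 0, with a median of 0.06, and at levels of 6 to 7 the median was 0.10. Under the 3 other scalings 26 to 27 of 31 were above 0. Ifi27 (7.43 (WT), 8.93 (MI) and 7.45 (RQ)) and Rtp4 (6.65, 8.04 and 6.57) were 2-fold higher in MI than in WT and 2-fold lower in RQ than in MI. In RQ minus WT the median of the 30 read was -0.00, with 14 above 0. There 2 genes were past 2-fold, Pml higher (1.85) and Ifi30 lower (-2.73). Pml, which builds nuclear bodies, read 6.93 (WT), 7.03 (MI) and 8.78 (RQ). Ifi30, a lysosomal reductase that antigen-presenting cells express without induction, was lower in both mutants (11.36, 8.21 and 8.63).

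Of 16 other class I and loading genes on the array, 10 were read in MI minus WT and none was past 2-fold. The chaperones Calr (11.78, 11.06 and 11.36 in WT, MI and RQ) and Canx (11.51, 11.24 and 11.30) were lower in both mutants. Calr was at -0.72 in MI and -0.42 in RQ, and Canx at -0.27 and -0.21. At their levels of 11 to 12 the median was -0.46 over 138 genes in MI minus WT and -0.05 over 168 in RQ minus WT. Cd1d1 differed by 0.37 in MI minus WT and Rfxap by -0.30 in RQ minus MI. Nlrc5, the activator of class I genes, did not reach the filter on any array. For class II presentation 2 of 9 genes were read, H2-Ab1 and H2-DMb2, and their largest difference was -0.17.

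**Figure D4:**
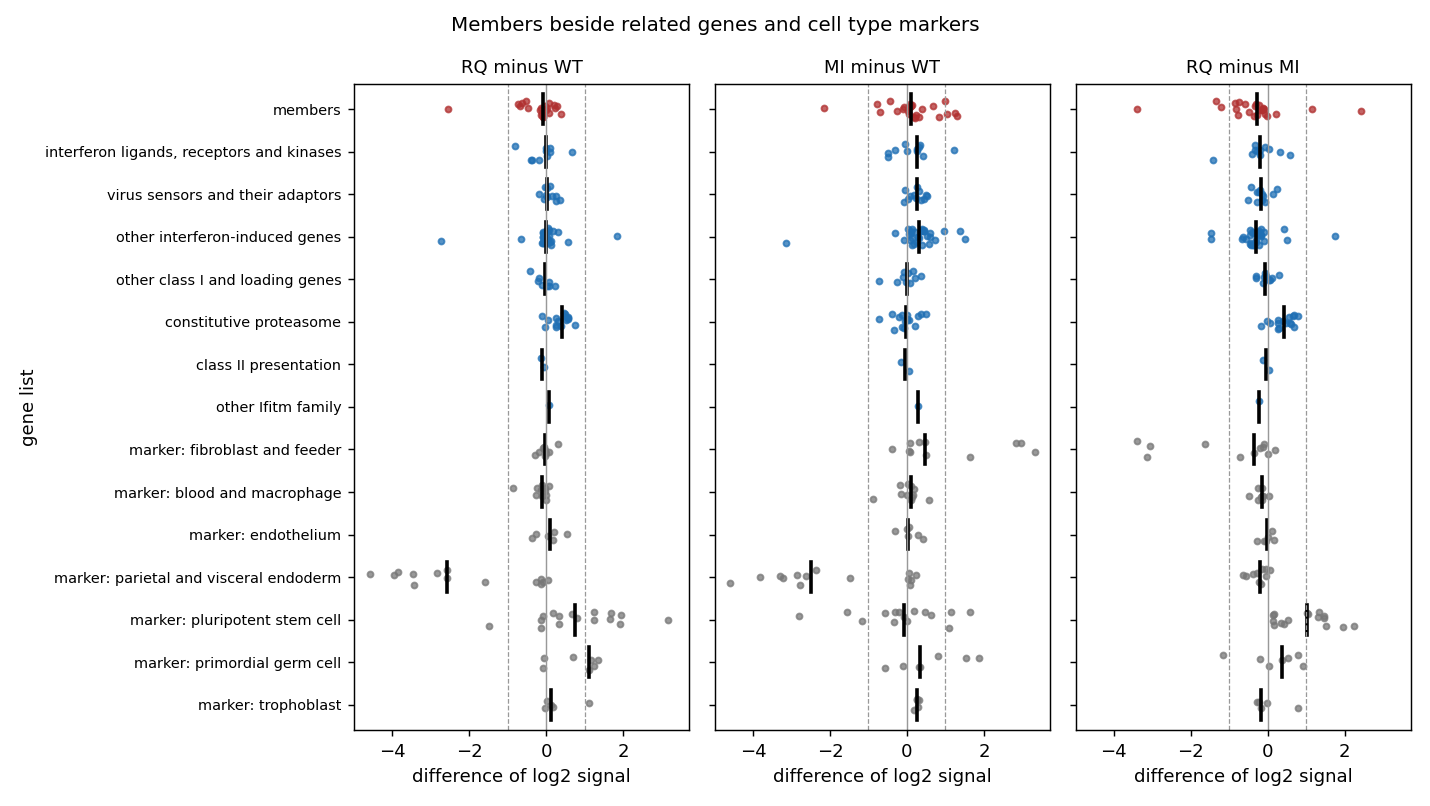
Difference of log2 signal for the genes read (points) and their median (black bars) in each list for RQ minus WT, MI minus WT and RQ minus MI, with the listed genes in red, other pathway genes in blue and cell type markers in grey. The further interferon-induced genes centre at 0.31 in MI minus WT and -0.00 in RQ minus WT, fibroblast markers include 4 far above WT in MI, and 9 of 14 endoderm markers read lie 2-fold or more below WT in each mutant.

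Markers of other cell types differed between the same arrays, and their part in the values above was not tested. Of 14 fibroblast and feeder markers on the array, the filter was passed by 7 (WT), 11 (MI) and 9 (RQ), and the summed linear signal of all 14 was 2856, 5592 and 2582. S100a4 (6.02, 9.33 and 5.93), Dcn (6.57, 9.54 and 6.48), Vim (8.05, 10.89 and 7.75) and Col1a2 (6.39, 8.03 and 6.39) were highest in MI. Fn1 (10.70, 10.30 and 10.50), the brightest marker of the list in WT, was lowest in MI (-0.40 in MI minus WT). The median there over the 278 genes at levels of 10 to 11 was -0.35. Col3a1, Postn and Pdgfrb differed by 0.09, 0.07 and 0.05 in MI minus WT. Lum, Thy1 and Twist1 did not reach the filter on any array. Endoderm markers had a summed signal of 15558 in WT, 2647 in MI and 2257 in RQ, with 9 of the 14 read at least 2-fold lower in each mutant. These were Cubn (-4.58 in RQ minus WT and -4.60 in MI minus WT), Lama1 (-3.95 and -3.83), Sparc (-3.85 and -3.21), Col4a2, Dab2, Col4a1, Lrp2, Lamb1 and Amn. The other 5, Afp (0.24), Hnf4a (0.10), Ttr (0.08), Gata6 (0.04) and Sox17 (0.01), were above 0 in MI minus WT. After the lowess correction 12 of the 14 were below 0 in MI minus WT, and in RQ minus WT 13 of the 14 were below 0 as deposited. Sox7, Gata4, Foxa2 and Apoa1 did not reach the filter. Pluripotent stem cell markers, which define the cells the bodies were made from, had 15 of 16 above the filter in WT, 15 in MI and 16 in RQ, with summed signals of 26067, 23616 and 37298. Dppa2 (3.17), Zfp42 (1.93), Nr0b1 (1.92), Klf2, Nanog, Klf4 and Sox2 were past 2-fold in RQ minus WT, all higher, while Lin28a was lower (-1.47). In MI minus WT, Dppa2 (1.64), Nanog (1.14) and Klf4 were 2-fold higher, and Lin28a (-2.80), Utf1 (-1.56) and Pou5f1 (-1.17) were lower. Between the mutants 9 of these markers were 2-fold higher in RQ, namely Klf2 (2.24), Nr0b1, Dppa2, Utf1, Sox2, Lin28a, Zfp42, Pou5f1 and Dppa4 (1.03). With quantile normalization and with the lowess correction 6 pluripotency markers, not 9, were 2-fold higher in RQ than in MI. Under the same scalings 4, not 3, were 2-fold higher in MI than in WT and 2, not 3, were 2-fold lower. Blood and macrophage markers summed to 1568, 1592 and 1425 with 11, 9 and 8 of 15 above the filter, and Itgam, Cd48, Cd52 and Spi1 did not reach it. The blood and macrophage marker Cd68 (7.16, 6.29 and 6.29) passed it in WT alone (-0.87 in both mutants), and Tyrobp differed by 0.57 in MI minus WT, Fcer1g by -0.27 in RQ minus WT and Csf1r by -0.26 in RQ minus MI.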

How the data were processed

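Total RNA (6 ug) of day 7 embryoid bodies was labelled and hybridized to 1 Affymetrix mouse array each for WT, MI and RQ, per the labels. The deposited values are log2 signals of 45101 probe sets. The submitters' processing notes name Partek and RMA without version or order, and RMA compresses signals near background. The deposited columns were not identical in distribution (SD 1.17, 1.06 and 1.17). Scanner files and scan dates were not used here. Names came from the platform annotation, in which 34945 probe sets had 1 symbol (18193 genes), 932 had several and 9211 none, with 64 control probe sets kept apart. The 18 hybridization spikes were lower on both mutant arrays than in WT (median -0.64 in RQ and -0.80 in MI).

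Differences of log2 signal were computed with Python 3.11.15 and pandas 2.3.3, for genes whose higher value reached 6.31, with limits of 2-fold and 1.5-fold, and the counting was tested on simulated data. Every member was to be named, and from each of 14 other lists the genes past 2-fold or otherwise the 4 with the largest difference. Further list genes were named after their values were seen. The members and lists were chosen with earlier results of these data known. Alternatives were median centring, quantile normalization, lowess (span 0.3, 3 iterations), other level filters, other probe set choices and, added after seeing the data, genes above the filter on all 3 arrays.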

Additional observations from a re-analysis of the deposited data

Results flagged for a closer look

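B2m was singled out because it stood on opposite sides of WT in the mutants by more than 1.5-fold each, 0.84 in MI and -2.56 in RQ. The difference between the mutants, RQ minus MI, was -3.39. With 1 array per genotype this difference was not tested.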

How the results depend on the processing

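The differences of B2m, Ifitm1, Ifitm2 and Ifitm3 that were past 2-fold kept their sign under each alternative tried, and so did the medians over the listed genes. The RQ minus MI median of -0.28 became -0.15 with no filter and -0.15 among genes above the filter on all 3 arrays. The MI minus WT median of 0.11 became 0.02 with the lowess correction and 0.18 with a stricter level filter. No paired analysis was possible because each genotype has 1 array. Quantile normalization and the lowess correction moved the values that involve the MI array. In that order, MI minus WT became 1.25 and 1.20 for B2m, -1.76 and -1.83 for Ifitm1, -0.37 and -0.38 for Ifitm2, and 1.68 and 1.62 for Ifitm3. In the same order, RQ minus MI became -3.68 and -3.69 for B2m, 2.08 and 2.06 for Ifitm1, 0.81 and 0.79 for Ifitm2, and -1.75 and -1.70 for Ifitm3. With the mean of its probe sets B2m was at -2.36 in RQ minus WT and -3.12 in RQ minus MI. After quantile normalization 5 listed genes, not 3, were 2-fold higher in MI than in WT, and with the lowess correction the count stayed at 3. Median centring lowered it to 2 of 25 read. Averaging over probe sets gave 2 of 22, and leaving out the less specific probe sets gave 2 of 21. Under both quantile normalization and the lowess correction 1 listed gene, not 2, was 2-fold higher in RQ than in MI. At 1.5-fold the counts were 6 higher and 3 lower in MI minus WT, 8 lower in RQ minus MI and 4 lower in RQ minus WT. Signal near background limits Usp18, Oasl2, Ifi35 and the genes at the filter, whose differences can understate the true ratio.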

Other observations

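Markers of endothelium and trophoblast, which embryoid bodies can hold, differed by less than 2-fold between the arrays, apart from Tfap2c. Of 10 endothelial genes 6 were read and none was past 2-fold in any comparison, with Cdh5, Kdr, Tek and Tie1 below the filter on each array. Pecam1 (0.54) and Esam (-0.36) differed most in RQ minus WT, Robo4 was at 0.29 in MI minus WT and Sox17 at -0.28 in RQ minus MI. Of 9 trophoblast genes on the array 5 were read. All 5 were above 0 in MI minus WT, with a median of 0.26, beside 59.5% and a median of 0.06 for all genes read. Tfap2c was above WT by more than 2-fold in RQ, a gene that the germ cell list also holds.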
